A study of Mus musculus with 6 samples.

Results

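Neurog3, Insm1, Neurod1, Pax4, Pax6, Nkx2-2, Rfx6, Myt1 and Isl1 are the transcription factors that carry pancreatic progenitors into the endocrine lineage, and they were taken as a named group of 9 genes of the 24389 listed in every library. They were found by matching Ensembl gene identifiers to mouse symbols, and all 9 were present in all 6 libraries. RNA was sequenced from the dorsal pancreas of mouse embryos at E13.5, in 3 libraries labelled Bicaudal C1 knockout (KO) and 3 labelled wild type (WT), both on a mixed C57BL/6 and ICR background. Bicc1 codes for the RNA-binding protein Bicaudal C1, and the knockout was compared with the wild type to see how its loss altered pancreatic mRNA. The labels do not describe the knockout allele, and they do not say whether a library came from 1 embryo or a pool, so a p-value reflects only how far these libraries spread, and that spread may be partly technical.

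Neurog3 is a basic helix-loop-helix factor that is switched on for a short time in scattered cells of the pancreatic duct-like epithelium, and mice without it form no islet cells. Its protein binds short DNA motifs called E-boxes together with ubiquitous partner proteins and turns on Insm1, Neurod1, Pax4, Nkx2-2, Rfx6 and Myt1, while Notch signalling through Hes1 holds it off in neighbouring cells. Pax6 and Isl1 act later, in hormone-producing cells, and Isl1 is also made in dorsal pancreatic mesenchyme and in neurons.

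The deposited values are a non-negative signal for each gene whose unit is not stated, with a floor of 0.01, and their sums per library ran from 674295 to 716255. In very short genes the low values fell on steps, as whole reads divided by length would give. Between 91.9% and 98.5% of such values per library lay on a step within 0.15 of its width, against 30% for an even spread. The step size of each library was fitted to these same values, so the 30%, which holds for a step fixed beforehand, is a loose comparison. That of WT 3 lay close to the lower end of the sizes searched. If values are reads per kilobase of gene scaled to 1000000 reads, these steps correspond to 118000000 reads in WT 2 and up to 164000000 in WT 3. On that reading the fewest reads behind any member were about 194, for Pax4, where counting error alone is 7.17% of the value, and for Neurog3 about 6670 (1.22%). These figures are approximate because the gene lengths the authors used are not given, but they are below the range of each member over the libraries. Bicc1 itself was low in every KO library, at 3.96, 4.91 and 4.48 across KO 1 to KO 3, where WT had 19.7, 19.5 and 18.2 across WT 1 to WT 3. It fell by 1.89 on the log2(value + 1) scale, and limma gave an adjusted p of 0.00067 (Benjamini-Hochberg over 13911 genes).

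The promoters of 4 members are shown because Neurog3 acts through E-boxes (CANNTG on either strand) and because Neurog3, Neurod1 and Nkx2-2 varied together across libraries while Isl1 did not. Each is the 250 bases before the annotated start, 5′ to 3′ on the strand of the gene, from RefSeq on build GRCm38.p6, which is not the build of the deposited values. Capitals mark E-boxes. They lie at chr10:62132840-62133089 (plus strand) for Neurog3, chr2:79456637-79456886 (minus strand) for Neurod1, chr2:147186403-147186652 (minus strand) for Nkx2-2 and chr13:116309689-116309938 (minus strand) for Isl1.
Neurog3: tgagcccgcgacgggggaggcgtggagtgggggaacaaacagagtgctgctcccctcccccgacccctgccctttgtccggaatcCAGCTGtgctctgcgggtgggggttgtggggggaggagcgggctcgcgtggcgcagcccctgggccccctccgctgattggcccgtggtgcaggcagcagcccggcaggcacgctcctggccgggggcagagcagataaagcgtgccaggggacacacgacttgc
Neurod1: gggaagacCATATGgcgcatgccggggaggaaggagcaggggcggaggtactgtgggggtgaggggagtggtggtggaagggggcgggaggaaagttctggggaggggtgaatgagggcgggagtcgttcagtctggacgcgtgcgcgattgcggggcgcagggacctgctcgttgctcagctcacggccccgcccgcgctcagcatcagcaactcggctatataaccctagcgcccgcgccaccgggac
Nkx2-2: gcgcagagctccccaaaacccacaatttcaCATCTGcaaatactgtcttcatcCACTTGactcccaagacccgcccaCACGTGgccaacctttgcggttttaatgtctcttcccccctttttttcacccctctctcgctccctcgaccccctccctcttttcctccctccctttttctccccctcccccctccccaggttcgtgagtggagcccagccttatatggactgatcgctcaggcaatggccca
Isl1: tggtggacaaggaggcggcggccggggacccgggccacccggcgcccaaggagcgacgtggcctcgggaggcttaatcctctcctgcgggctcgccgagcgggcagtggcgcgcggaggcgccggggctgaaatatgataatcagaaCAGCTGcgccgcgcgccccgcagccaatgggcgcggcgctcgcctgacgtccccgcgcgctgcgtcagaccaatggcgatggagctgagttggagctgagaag
Neurog3 and Isl1 each held 1 E-box of the form CAGCTG, which occurs in 13% of the 32851 promoter windows of this length. Neurod1 held 1 E-box, CATATG, close to the upstream edge of the window. Nkx2-2 held 3 E-boxes. The first from the upstream edge, CATCTG, occurs in 14.4% of windows when its reverse complement is counted too. The E-box nearest the start, CACGTG, occurs in 6.02% of windows. Any E-box occurs in 66.2% of windows, so its presence here is no mark of the group. The table matched 7 of the 9 members, in 10 windows. Those of Rfx6, of Pax6 at start site 1 and of Myt1 at start site 1 held no E-box. A match describes letters only and says nothing of binding.

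In the Bicc1 KO libraries the mean of every member was lower than in WT, from 66.6% of the WT mean for Neurog3 to 96.4% for Isl1, but none passed the test across all genes. On the log2(value + 1) scale the 3 largest differences were those of Neurog3 and of its early targets Insm1 and Neurod1. This order depends on the scale: as a percentage of the WT mean, Pax4 (73.0%) stood just under Neurod1 (73.8%). KO 1 and KO 3 were low for 8 of the 9 members, and KO 2 lay at or near WT for most of them. Isl1 did not follow the other members.

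Neurog3 (ENSMUSG00000044312, chromosome 10), the head of the cascade, had values of 34.0, 50.9 and 35.1 across KO 1 to KO 3 and 66.4, 55.4 and 58.3 across WT 1 to WT 3. Every KO value was under every WT value, but KO 2 was much closer to the lowest WT library than to the other KO libraries. The KO mean was 40.0 ± 9.46 and the WT mean 60.0 ± 5.72 (SD, n = 3 each), a log2 difference of -0.59 (SE 0.156, 95% interval -0.96 to -0.23). In limma p was 0.0059 before and 0.469 after Benjamini-Hochberg adjustment. In the annotation 16.3% of the exonic bases of Neurog3 overlap Fam241b on the opposite strand, and with libraries that carry no strand information reads of the pair cannot be told apart there.

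Insm1 (ENSMUSG00000068154, chromosome 2), a zinc-finger factor needed for endocrine differentiation, had values of 7.50, 11.3 and 7.49 across KO 1 to KO 3. Across WT 1 to WT 3 it was 14.4, 11.9 and 12.6, so the groups did not overlap, with KO 2 just under WT 2. The log2 difference was -0.54 (SE 0.154), and its adjusted p from limma was 0.469. Neurod1 (ENSMUSG00000034701, chromosome 2), the helix-loop-helix factor that takes over from Neurog3 as cells differentiate, had 11.9, 19.0 and 12.9 in KO and 22.9, 18.2 and 18.3 in WT. KO 1 and KO 3 lay under every WT library, and KO 2 lay above WT 2 and WT 3, so the groups overlapped. The log2 difference was -0.43 (SE 0.173, adjusted p 0.469 in limma). Some exonic bases of Neurod1 (13%) overlap Cerkl on the same strand or an uncharacterised gene on the other.

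Nkx2-2 (ENSMUSG00000027434, chromosome 2), a homeodomain factor needed for beta cells, had values of 15.4, 23.1 and 13.7 across KO 1 to KO 3 and 23.8, 20.1 and 25.1 across WT 1 to WT 3. KO 2 lay inside the WT range and the other KO libraries below it. The log2 difference was -0.41 (SE 0.183, adjusted p 0.469 in limma). Its antisense neighbour Nkx2-2os overlaps 9.67% of its exonic bases, and its share of the signal cannot be told apart without strand. Pax4 (ENSMUSG00000029706, chromosome 6), a paired-homeodomain factor that favours beta and delta cells over alpha cells, was the member with the lowest approximate read number, with 1.25, 1.99 and 1.15 in KO and 2.41, 1.50 and 2.10 in WT. WT 2 was low as well as KO 1 and KO 3, and the groups overlapped through KO 2. Its log2 difference was -0.29 (SE 0.162, adjusted p 0.484 in limma), and on the log2(value + 1) scale the change of so low a gene is understated.

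Rfx6 (ENSMUSG00000019900, chromosome 10), a winged-helix factor needed for islet cells other than those making pancreatic polypeptide, had values of 1.38, 2.23 and 1.58 across KO 1 to KO 3 and 2.57, 2.39 and 1.94 across WT 1 to WT 3. KO 2 lay above WT 3, and the log2 difference was -0.28 (SE 0.134, adjusted p 0.472 in limma). Myt1 (ENSMUSG00000010505, chromosome 2), a zinc-finger factor that works in a loop with Neurog3, had 3.64, 6.31 and 3.91 in KO and 7.07, 5.73 and 5.27 in WT. KO 2 lay above WT 2 and WT 3, and the log2 difference was -0.34 (SE 0.183, adjusted p 0.478 in limma).

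The pair of later factors showed the smallest differences. Pax6 (ENSMUSG00000027168, chromosome 2), which drives hormone genes, had values of 1.67, 2.40 and 1.69 across KO 1 to KO 3 and 2.22, 2.13 and 1.97 across WT 1 to WT 3. It was the only member for which KO 2 was higher than every WT library. Its log2 difference was -0.10, with a 95% interval of -0.36 to 0.16 and an adjusted p of 0.698 in limma. Isl1 (ENSMUSG00000042258, chromosome 13), a LIM-homeodomain factor, had 10.2, 8.81 and 9.53 in KO and 10.1, 10.3 and 9.14 in WT. KO 2 was here the lowest of the 6 libraries, whereas it was the highest KO library for the other 8 members. Its log2 difference was -0.05, with a 95% interval of -0.24 to 0.15 and an adjusted p of 0.802 in limma.

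**Figure D1:**
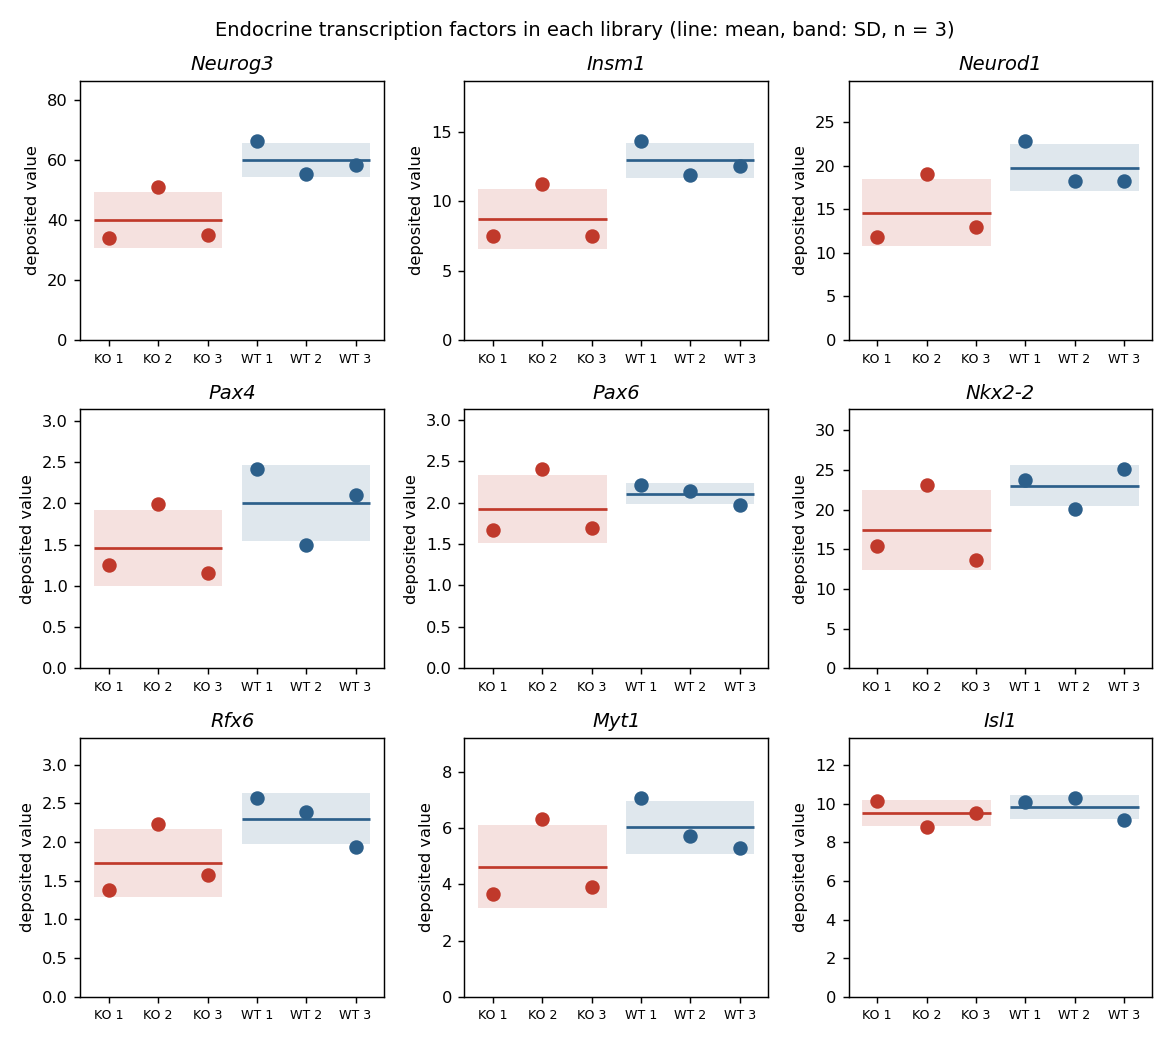
Deposited value of each of the 9 factors (y axis, unit not stated, from 0) in each library (x axis), with KO in red and WT in blue, the line at the group mean and the band at ± 1 SD (n = 3). Neurog3 and Insm1 have no overlap between groups, KO 2 stands above KO 1 and KO 3 in every panel except that of Isl1, and Isl1 is level.

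Of the 9 members, 0 passed an adjusted p of 0.05 in limma, where 0.0144% of all 13911 genes tested were called lower. At an unadjusted p of 0.05 the members below WT were Neurog3, Insm1 and Neurod1 (3 of 9), against 4.36% of all genes. Groups did not overlap, with KO lower, for 2 members, Neurog3 and Insm1, against 8.77% of all genes. The median log2 difference of the members was -0.34, beside 0.01 for all genes tested. All 9 passed the filter of a mean value of at least 1.

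Most of the spread within the KO group came from KO 2. It was the highest KO library for 8 of 9 members, against 45.5% of all genes tested, and it exceeded the lowest WT value for 6 of them. Expressed as a percentage of the WT mean, the median member stood at 60.5% in KO 1, 96.7% in KO 2 and 64.9% in KO 3, and at 111%, 92.3% and 93.6% in WT 1, WT 2 and WT 3. Among the members other than Isl1, KO 1 ranged from 56.6% to 79.3%, KO 3 from 57.4% to 80.3% and KO 2 from 84.8% to 114%, so KO 2 did not overlap the other KO libraries. WT 1 was the highest WT library for 7 members.

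Without KO 2 the KO mean of Neurog3 was 57.6% of the WT mean, that of Insm1 57.8% and that of Pax4 59.9%, and Isl1 was at 99.96%. The log2 differences were then -0.78 for Neurog3 (SE 0.0958, adjusted p 0.103), -0.71 for Insm1 (adjusted p 0.154) and -0.63 for Neurod1 (adjusted p 0.349), all in limma over 13848 genes. Again 0 members passed an adjusted p of 0.05, against 0.0289% of all genes called lower. Both remaining KO values lay below all WT values for 8 of 9 members, all except Isl1, against 14.7% of all genes. The same 8 members were lower at an unadjusted p of 0.05, against 4.36% of all genes. KO 2 was the highest KO library for each of these 8, so leaving it out could only lower their KO means. Their values also rose and fell together over the 6 libraries (median pairwise r 0.91, lowest 0.75), so they are not 8 separate observations. The median log2 difference was -0.55, beside 0.00 for all genes. Over all processing alternatives, with and without single libraries, the adjusted p of Neurog3 ranged from 0.103 to 0.907.

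**Figure D2:**
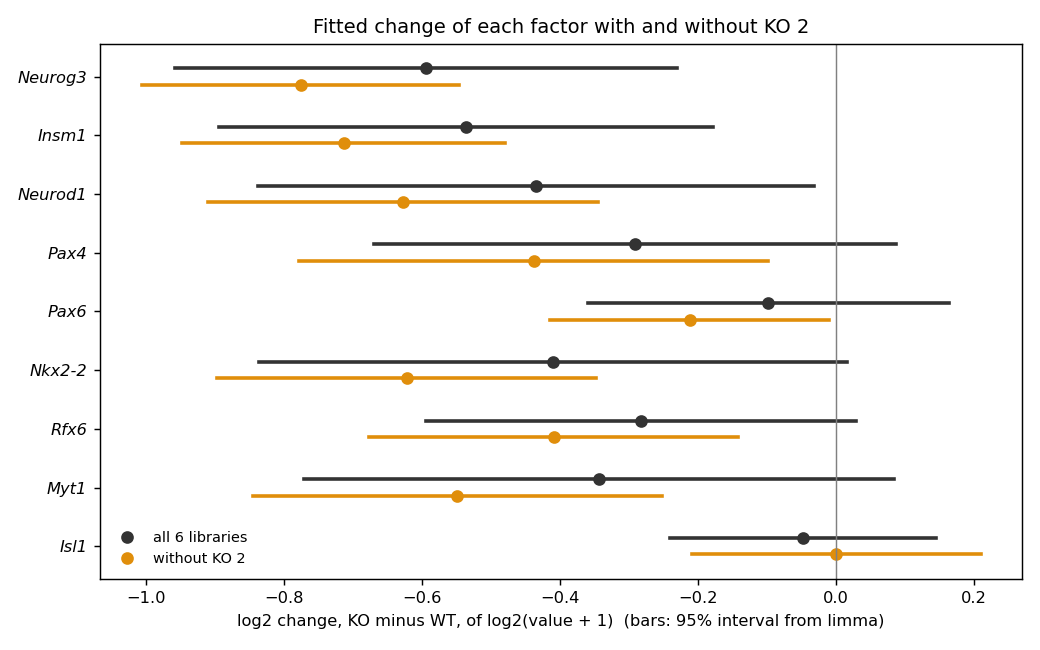
Fitted difference between KO and WT on the log2(value + 1) scale (x axis, points) with its 95% interval from limma (bars) for each factor (y axis), from all 6 libraries (dark) and without KO 2 (orange). Every point except that of Isl1 moves further below 0 without KO 2, from -0.59 to -0.78 for Neurog3, and the intervals are not adjusted for the number of genes.

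The largest contrast among the libraries ran across genotype. The first principal component (57.3% of the variance) set KO 1, KO 2 and WT 3 apart from KO 3, WT 1 and WT 2. Xist, which is expressed in female cells, was 3.63, 4.63 and 3.79 on the first side and 1.33, 1.28 and 0.01 on the second. Ddx3y, a Y-linked gene, was 3.17, 6.88 and 3.31 on the first side and 8.98, 8.82 and 11.1 on the second, so that KO 2 had the highest Xist and also more Ddx3y than KO 1 or WT 3. Transcripts of both genes were thus above the floor in every library except WT 2, where Xist was at it. The part of the sex of the embryos in the results was not tested. With each side taken alone, KO 3 lay below both WT 1 and WT 2 for 9 of 9 members, against 34.6% of all genes. On the other side KO 1 and KO 2 both lay below WT 3 for 4 of 9 members (Neurog3, Insm1, Pax4 and Nkx2-2), against 24.8% of all genes. Neurog3 in KO was 57.6% of WT on the side of KO 3 and 72.9% on the side of KO 1 and KO 2. Pax6 was 77.8% and 103%, and Isl1 was 93.4% and 104%. With the side as a term in limma the log2 difference of Neurog3 was -0.62 (adjusted p 0.36).

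Insm1 kept a nearly fixed proportion to Neurog3 in every library, KO or WT. It was 22.1%, 22.1% and 21.4% of Neurog3 across KO 1 to KO 3 and 21.7%, 21.5% and 21.6% across WT 1 to WT 3. The coefficient of variation of this ratio over the 6 libraries was 1.41%, while that of the level of Insm1 itself was 25.8%. Of 13910 genes set against Neurog3 in this way, Insm1 had the lowest coefficient of variation, and the median over genes was 30.2%. The counting error of Insm1, about 1.87% in its lowest library, is of the size of that variation.

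Neurod1 was 34.9%, 37.3% and 36.9% of Neurog3 in KO and 34.4%, 32.9% and 31.4% in WT, so its ratio was higher in every KO library, by a small margin. Its coefficient of variation (6.56%) was the third lowest of all genes. Those of Myt1, Rfx6, Nkx2-2 and Pax4 ran from 10.2% to 12.2%, and all were among the 30 lowest. Pax6 was 4.91%, 4.72% and 4.83% of Neurog3 in KO and 3.34%, 3.85% and 3.39% in WT, higher in every KO library. Isl1 was 29.9%, 17.3% and 27.2% of Neurog3 in KO and 15.2%, 18.6% and 15.7% in WT, with overlap through KO 2. The ratio lay above WT in all KO libraries for 3 of the 8 members (Neurod1, Pax6 and Myt1), overlapped for 5 and lay below for 0, where 62.9% of all genes had a ratio above WT in all KO libraries.

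The tested genes outside the group whose log2 values were most like those of Neurog3 over the 6 libraries were Fgfr2 (Pearson's r 0.992), Hsph1 (0.988), Ncbp1 (0.988), Mmd2 (0.987) and Vipr2 (0.982). Fgfr2, a growth factor receptor of the epithelium, had 779, 914 and 785 across KO 1 to KO 3 and 1008, 925 and 928 across WT 1 to WT 3. It thus had the same order of libraries as Neurog3 over a narrower range. Against the mean profile of the members the likest genes were Fgfr2 (0.995), Prmt3 (0.995), Nap1l5 (0.991), Cdkn1a (0.991) and Glb1l2 (0.989). Cdkn1a, a cell cycle inhibitor, had 18.3, 24.4 and 17.9 in KO and 26.2, 22.5 and 23.3 in WT. Among members, r with Neurog3 was 0.999 for Insm1, 0.973 for Neurod1, 0.80 for Pax6 and -0.06 for Isl1. These coefficients describe 6 libraries that share a genotype contrast and are given without a test.

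Since the whole organ was sequenced, fewer endocrine progenitors and less mRNA per progenitor cannot be told apart. The 14 epithelial markers had 7 lower and 7 higher means in KO, 0 called, and a median log2 difference of 0.00. Without KO 2 this median was -0.20, beside -0.55 for the members, with 12 of 14 lower. At an unadjusted p of 0.05 in limma 5 of the markers were lower, against 4.36% of all genes. Both KO values lay under every WT value for 5 of them, against 14.7% of all genes. The summed level of the 14 was 520, 678 and 421 across KO 1 to KO 3 and 571, 479 and 581 across WT 1 to WT 3, so KO 2 was the highest and KO 3 the lowest library. Cdh1 (E-cadherin, the adhesion protein of epithelial cells) was 104, 130 and 87.6 in KO and 119, 112 and 115 in WT. Epithelial signal was thus highest in KO 2, as the members were among KO libraries, and its part in their values was not tested.

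Relative to Cdh1 of the same library, Neurog3 was 32.8%, 39.2% and 40.0% across KO 1 to KO 3 and 55.8%, 49.5% and 50.7% across WT 1 to WT 3. On this scale KO 2 lay between the other KO libraries, and the KO mean of 37.3% ± 3.97 (SD, n = 3) stood at 71.7% of that of WT, 52.0% ± 3.34 (SD, n = 3). Relative to Epcam, another epithelial surface protein, Neurog3 was 66.8%, 79.2% and 78.3% in KO and 109%, 106% and 103% in WT, so the KO mean was 70.5% of WT. With either marker all KO ratios lay below all WT ratios for 4 of 9 members (Neurog3, Insm1, Neurod1 and Nkx2-2), against 0.395% of all genes for Cdh1 and 0.568% for Epcam. Cdh1 and Epcam were chosen from the 14 markers after their values were seen. Against the full list, Neurog3 lay below in all KO libraries for 11 of 14 markers, with overlap for Krt8, Cldn3 and Cldn7. The number of members below in all KO libraries depended on the marker, from 0 with Cldn3 or Cldn7, 1 with Krt8 and 2 with Cldn6 or Esrp1 to 8 with Krt19, against 0.144% (Cldn7) to 11.7% (Krt19) of all genes. In limma on the values so divided 0 members passed, with an adjusted p of 0.326 for Neurog3 with Cdh1 and 0.302 with Epcam, and the error of the 1 marker then enters every gene. Relative to the mean of all 14 markers, the median log2 difference of the members was -0.42 with KO 2 and -0.42 without it.

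**Figure D3:**
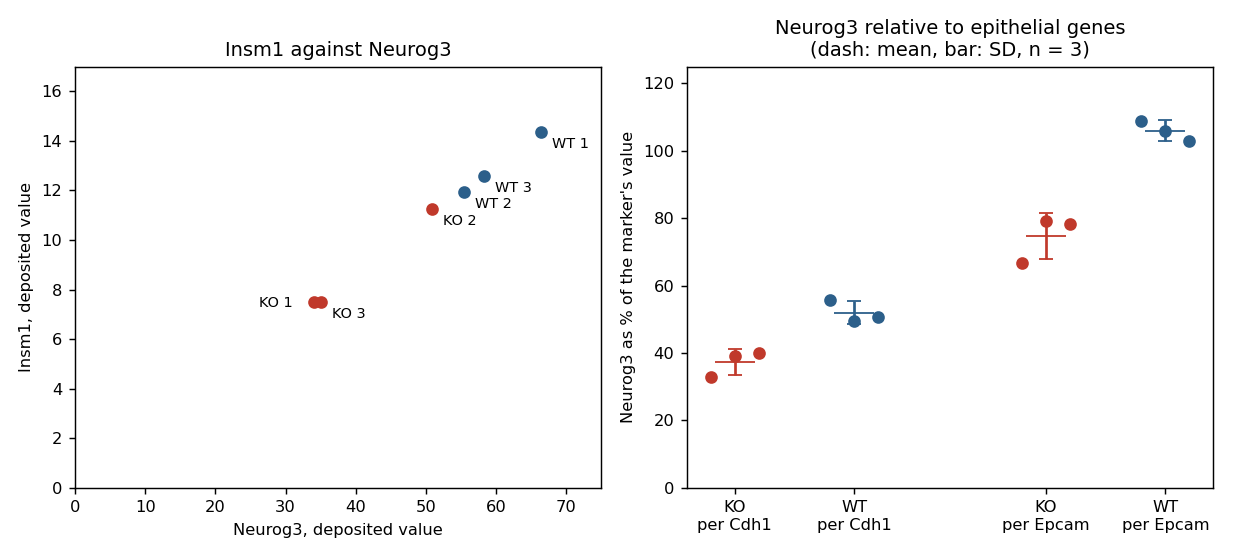
Left, the deposited value of Insm1 (y axis) against that of Neurog3 (x axis) in each library; right, Neurog3 as a percentage of Cdh1 or Epcam of the same library (y axis, from 0), with the mean (dash) and SD (bar, n = 3). The 6 libraries lie close to 1 line through the origin at left, and at right KO 2 falls among the KO libraries, which range from 32.8% to 40.0% per Cdh1 against 49.5% to 55.8% in WT.

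The Notch pathway showed 0 of 15 genes called by limma, with 6 lower and 9 higher means in KO and a median log2 difference of 0.04. Dll1, Mfng and Hes6 of this list also stand in that of genes expressed together with Neurog3. Hes1, the Notch effector that represses Neurog3, was 15.7, 17.3 and 15.7 across KO 1 to KO 3 and 19.2, 19.1 and 19.1 across WT 1 to WT 3. Its groups did not overlap, with a log2 difference of -0.23 and an adjusted p of 0.469 in limma. Dll4, a Notch ligand, was 1.80, 2.72 and 2.07 in KO and 1.60, 1.45 and 1.86 in WT.

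Of the progenitor factors that act before Neurog3, 13 of 15 were tested, 0 were called, 11 were lower and 2 higher, and the median log2 difference was -0.11 (-0.24 without KO 2). Gata6, a zinc-finger factor of the early pancreas, was 10.6, 11.5 and 10.2 across KO 1 to KO 3 and 13.1, 13.4 and 12.7 across WT 1 to WT 3, with no overlap (log2 difference -0.25, adjusted p 0.469 in limma). Ptf1a, which directs the acinar and multipotent programmes, was 3.60, 4.36 and 3.30 in KO and 5.94, 5.07 and 4.04 in WT, overlapping through KO 2 and WT 3.

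Genes expressed together with Neurog3 in progenitors were lower in 10 of 13 and higher in 3, with 0 called and a median log2 difference of -0.17 (-0.30 without KO 2). Gadd45a, a stress and cell cycle gene, was 11.3, 13.8 and 12.7 across KO 1 to KO 3 and 20.2, 18.3 and 16.3 across WT 1 to WT 3. It had the lowest p of the list (log2 difference -0.50, adjusted p 0.469 in limma), and KO 2 stayed below every WT library. Sox11, a SoxC factor, had a higher mean in KO, with 1.84, 1.55 and 2.23 in KO and 1.09, 1.56 and 1.29 in WT.

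Downstream, the later endocrine transcription factors had 11 of 19 tested, 0 called, 7 lower and 4 higher, and a median log2 difference of -0.10. Nkx6-1, Pdx1 and Mnx1 of this list also stand in that of progenitor factors, and St18 in the previous list, so the lists are not separate sets of genes. Without KO 2 the median was -0.15, with 10 of 11 lower. At an unadjusted p of 0.05 in limma 5 were then lower, against 4.36% of all genes, where there were 0 with all libraries. Fev, a factor of late endocrine progenitors that also stands in the previous list, was 3.24, 5.86 and 2.97 across KO 1 to KO 3 and 5.40, 4.58 and 5.14 across WT 1 to WT 3. KO 2 was thus above every WT library and KO 1 and KO 3 were below all of them. Hhex, a homeodomain factor needed in delta cells, was 25.0, 32.2 and 27.0 in KO and 35.2, 31.0 and 29.0 in WT.

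Islet hormone genes had 7 of 9 tested, 0 called, 2 lower and 5 higher, and a median log2 difference of 0.04 that became -0.28 without KO 2. Gcg, which encodes glucagon of the first endocrine cells, was 148, 226 and 199 across KO 1 to KO 3 and 229, 199.7 and 145 across WT 1 to WT 3. Its KO mean was 100.1% of WT, while that of Neurog3 was 66.6%. Ins2, an insulin gene, was 2.84, 23.5 and 2.11 in KO and 10.1, 3.72 and 6.85 in WT. Ins1 was 1.44, 7.20 and 1.02 in KO and 2.67, 1.37 and 2.58 in WT. For both insulin genes KO 2 was far above every other library. The median hormone gene stood at 151% of the WT mean in KO 2, the median epithelial marker at 133% and the median member at 96.7%.

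**Figure D4:**
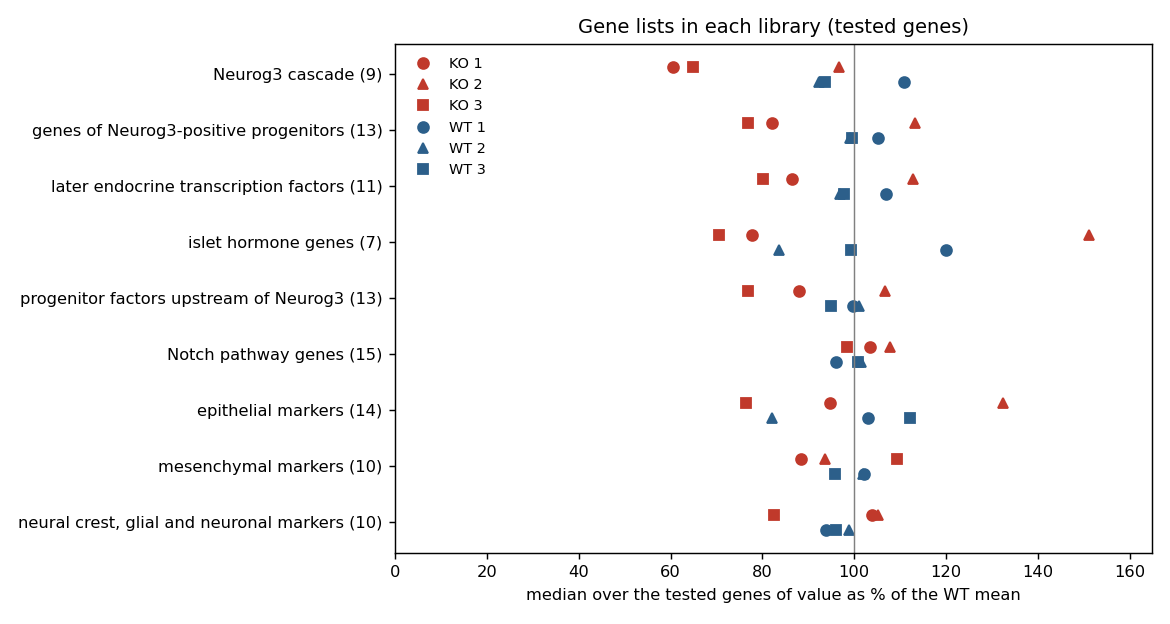
Median over the tested genes of 9 lists (y axis, number tested in brackets) of the value as a percentage of its WT mean (x axis), for the KO (red) and WT (blue) libraries, with the marker shape for the replicate number. Among the 9 lists plotted, KO 1 and KO 3 are lowest for the Neurog3 cascade at 60.5% and 64.9%, while KO 2 is highest for the hormone genes at 151%.

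Markers of other tissues were read beside these values. The pancreatic factor Ptf1a and the hormone gene Gcg were present in all 6 libraries. The 16 neural crest, glial and neuronal markers summed to between 57.1 and 66.9 in KO and between 60.5 and 68.7 in WT, with 0 of 10 tested genes called. Sox10, of neural crest and glia, stood at 64.8%, 123% and 64.5% of its WT mean across KO 1 to KO 3, the pattern of most members, with a log2 difference of -0.20 (-0.41 without KO 2, adjusted p 0.407 in limma), and its part in their values was not tested. The 10 mesenchymal markers summed to between 646 and 730 in KO and between 695 and 704 in WT, with 5 lower, 5 higher and 0 called. The 9 stomach and intestine markers summed to 7.48, 6.45 and 5.14 across KO 1 to KO 3 and 4.54, 3.27 and 4.42 across WT 1 to WT 3, led by Barx1 of stomach mesenchyme at 5.04, 3.14 and 2.90 in KO and 1.44, 1.18 and 2.70 in WT. Of the other genes of this list, Gast was 0.98, 2.17 and 0.97 in KO and 1.41, 0.72 and 0.62 in WT. Sox2 had a lower mean in KO, with 1.01, 0.72 and 0.92 in KO and 1.20, 1.08 and 0.78 in WT. Shh and Gkn1 were at or near the floor of 0.01 in every library. The 4 spleen mesenchyme markers summed to between 15.4 and 37.2 in KO and between 16.6 and 18.1 in WT, highest in KO 3, and Wt1 made up most of this sum. All 3 tested genes of the list had higher means in KO, with a median log2 difference of 0.59. Nkx3-2, a spleen and gut mesenchyme factor, was 2.25, 2.04 and 2.58 in KO and 0.82, 0.66 and 1.47 in WT, and Nkx2-5, too low to be tested, was 0.41, 0.32 and 0.77 in KO and 0.03, 0.05 and 0.13 in WT, so both lay above WT in every KO library. The 6 liver markers summed to between 28.6 and 56.2 in KO and between 28.0 and 44.2 in WT. The stomach and intestine sum, led by Barx1, was thus higher in every KO library. The spleen sum was higher in KO 1 and KO 3, and in KO 2 it was below every WT library. The part of either in the member values was not tested. Of these genes 0 were called on the deposited values. Over the processing alternatives, the lowest adjusted p in limma was 6.9e-05 for Barx1, 2.4e-05 for Nkx3-2 and 0.006 for Tlx1. Among all genes, any were called higher only after division by Cdh1 (208) or Epcam (182), without KO 2 (4) and after the GC correction (1). Without KO 2 the adjusted p in limma was 0.51 for Barx1, 0.42 for Nkx3-2 and 0.54 for Tlx1. The groups of Tlx1 overlapped, at 3.1, 2.4 and 8.7 in KO and 2.5, 2.1 and 2.7 in WT. Xist, whose groups overlapped too, reached 1.06e-05 in the same way, so these lowest values are not read as calls.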

How the data were processed

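TruSeq RNA v2 libraries, which do not mark strand, were made from snap-frozen dorsal pancreata, per the labels' protocols. The submitters' processing notes name CASAVA 1.82, Bowtie 0.12.7 and the build mm9. How genes were annotated, counted and normalized is not given in the sources used here. As deposited, the authors' files hold 1 signal per gene and library, which was used without further scaling. Symbols were found for 22624 of 24389 identifiers, and an annotation of build GRCm38 gave names, chromosomes, exon overlap and GC content.

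The 13911 genes whose mean over the libraries reached 1 were compared on log2(value + 1) by the two-sided moderated test of limma 3.58.1 (R 4.3.3), with a trend in the variance and genotype alone in the model. The Benjamini-Hochberg method adjusted p over all of them, with a threshold at 0.05. An exact test of 3 against 3 cannot give a p under 0.1. Differences of low genes come out too small on this scale. Only the limma fit was tested on simulated data, in which all genes had the same spread and varied independently.

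The 9 members and the gene lists were chosen with earlier results of these data known, so lists are described by counts and medians without a test. Genes named are the members, Bicc1, the 2 genes of lowest p in each list (not all are printed), Gcg, Ins1, Ins2, Xist, Y-linked genes and the 5 genes most like Neurog3 or the mean member profile. Cdh1, Epcam, Sox2, Shh, Gkn1, Wt1 and Nkx2-5 were chosen after their values were seen. Alternatives were other scalings, filters, pseudocounts and moderation, a replicate block, a GC correction, a term for the first component, each library left out, and, added after the data were seen, division by Cdh1 or Epcam. Python 3.11.15, numpy 2.4.6, pandas 2.3.3 and matplotlib 3.10.9 made the tables and figures.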

Additional observations from a re-analysis of the deposited data

How the results depend on the processing

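Under all 17 alternatives 0 members passed limma at an adjusted p of 0.05 (Benjamini-Hochberg), with a lowest value of 0.103 (Neurog3, without KO 2). The filters, robust moderation and the replicate block cannot change a log2 difference, and every alternative reuses the same libraries. Of 153 log2 differences of members, with those repeats, 150 stayed below 0. The exceptions were Isl1 at 0.00047 without KO 2 (the other end, with 1 library left out, was -0.096 without WT 3), 0.067 per Cdh1 and 0.043 per Epcam, and the cause was not tested. The count of members whose KO values were all under their WT values was 2 with all libraries, against 8.77% of all genes. It was 4 per Cdh1 and 4 per Epcam, against 0.395% and 0.568% of all genes, and 4 after the GC correction. When 1 library was left out it was between 2 and 8, where fewer libraries have to be separated. It was 8 without KO 2, against 14.7% of all genes, and 4 without WT 2. The share over all genes was not computed for the GC correction or without WT 2, so those counts are not read as a result about the members. The cause of the other moves was not tested. The median log2 difference of the members ran from -0.55 without KO 2 to -0.23 without KO 1. Over all genes, the number called was 2 with all libraries, 1 without a filter, 3 with upper quartile scaling, 4 after GC correction and 1 to 8 with 1 library left out (8 without KO 2). Divided by Cdh1 or Epcam it was 223 or 197, of which 15 were lower in each, and the median of all genes moved to 0.12 or 0.10. With the replicate number as a block 0 genes and 0 members were called, and the adjusted p of Neurog3 was 0.742. No pairing by number was seen: deviations of same-numbered libraries correlated at -0.216, -0.398 and -0.638, and 0 of 3 KO libraries correlated best with its own number. These deviations also carry the first component, and a pairing beneath it was not tested.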
